A study of Homo sapiens with 24 samples.

Results

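BxPC-3 is an established cell line derived from a human pancreatic adenocarcinoma (PAAD), and the data described here are its 6 libraries among the 24 of the study. The libraries were chosen by their titles, which mark 3 controls and 3 cultures treated with Ocoxin, a nutritional supplement that combines extracts of green tea, licorice and cinnamon with vitamins, minerals and amino acids. RNA came from adhered cells, and the treated cells had received Ocoxin diluted 500-fold in RPMI-1640 with reduced serum for 48 h, a dose the authors set from viability assays. The labels print this dilution for the control libraries as well and do not say what the controls received, so the group rests on the letter C or O in the title. Nothing in the labels ties a replicate number to separate cultures or days, and p-values therefore measure the spread between these libraries, which may be technical. SW620 colorectal cells and HCC-70 breast cancer cells, 6 libraries each and treated at a 700-fold dilution, were used only to show where the response of BxPC-3 differed.

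Cells answer a shortage of amino acids or other stress by phosphorylating the initiation factor eIF2, which lowers protein synthesis but favours translation of the transcription factor ATF4, and ATF4 in turn induces enzymes and transporters that supply amino acids. Electrophilic compounds free the transcription factor NRF2 from its inhibitor KEAP1 and so induce antioxidant enzymes, whereas free zinc activates MTF1, which induces the metal-binding metallothioneins. Pancreatic ductal tumors can show a ductal or a squamous, basal-like program, and the second is marked by keratins, desmosomal cadherins and epidermal envelope proteins.

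The libraries held between 31101178 and 34231106 counts on 58051 genes, with most fragments counted as 2 reads, and 17280 genes had enough counts for the test. On these, the first principal component (43.97% of the variance) separated controls from treated libraries and the second (23.09%) separated replicate 3 of both groups from replicates 1 and 2. Ductal and epithelial markers were present (11 of 12 at 1 CPM or more, where CPM is the count scaled to a common library size after TMM normalization, their sum between 5612 and 6167 CPM in controls and between 5786 and 6181 CPM after Ocoxin). None of 10 acinar and none of 8 endocrine markers had a group mean of 1 CPM or more. Of 9 immune markers 2 did, CD14 (3.92 and 4.51 CPM) and CD3E (2.12 and 2.27 CPM), neither past the test, while PTPRC, which defines leukocytes, stayed at or below 0.182 CPM. CDKN2A and SMAD4, both lost from this line, had 0 counts in all 6 libraries. Among endothelial markers KDR had no count, while CDH5 rose from 61.7 ± 3.45 to 96.6 ± 6.67 CPM (mean ± SD, n = 3) and VWF from 3.89 ± 0.197 to 7.22 ± 1.45 CPM, and their part in other results was not tested. Of 9 fibroblast markers 2 fell, the collagen COL3A1 from 3.52 ± 0.379 to 1.10 ± 0.330 CPM and the proteoglycan LUM from 4.64 ± 0.388 to 1.97 ± 0.396 CPM, while COL1A1 lay between 14.1 and 16.9 CPM in controls and between 16.4 and 18.4 CPM after Ocoxin and did not pass. In bulk RNA, fewer cells of a kind and less RNA per cell cannot be told apart.

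To find the genes that Ocoxin altered, the 3 treated libraries were tested against the 3 controls with the quasi-likelihood F-test of edgeR, adjusted by Benjamini-Hochberg over all 17280 genes. At an adjusted p under 0.05, 1440 genes (8.33%) were altered, 815 increased (4.72%) and 625 decreased (3.62%). Most changes were small, with a median size of 0.348 on the log2 scale, and 43 genes rose and 57 fell at least 2-fold. In 1424 of the 1440 genes the 3 treated values lay entirely above or below the 3 controls, which was also the case for 27.5% of all genes tested. Same-numbered control and treated libraries deviated together, clearly so only for replicate 3. With the replicate number as a block 3998 genes (23.1%) passed, 2090 increased (12.1%) and 1908 decreased (11%), including 1436 of the 1440. Increases made up 56.6% of the altered genes, and 46.1% once the dependence on length and GC of the genes was removed in the fit with the block. Without Ocoxin replicate 2 the count was 641, without Ocoxin replicate 1 it was 685 and without control replicate 2 it was 800, and 487 genes passed without any 1 of the 6 libraries. For any 1 gene, the smallest p that exact permutation of 3 and 3 libraries allows is 0.1, so the adjusted p-values below come from edgeR, and the genes named as changed passed without any 1 library unless stated otherwise.

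**Figure D1:**
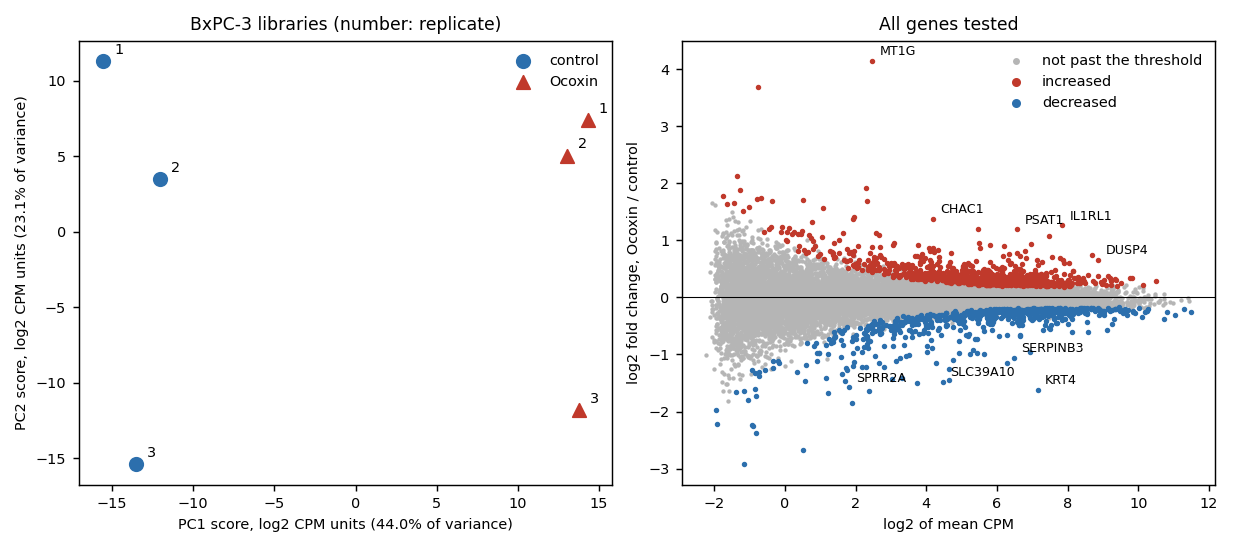
Left, scores of the 6 BxPC-3 libraries on the first and second principal components of log2 CPM, with replicate numbers. Controls sit between -15.5 and -12.1 and Ocoxin libraries between 13.1 and 14.3 on the first component. Right, log2 fold change of each of the 17280 genes tested against the log2 of its mean CPM, where MT1G is the highest point at 4.14.

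The protein-coding genes with the largest increases at 1 CPM or more in the higher group were MT1G, MT1H, MT1M and MT1F, the interleukins IL19 and IL37, CHAC1, HLA-F, the interleukin 33 receptor IL1RL1, and RENBP, C13orf46 and CYP3A4. The last 3 were near 1 CPM and lost their call without 1 or more of the libraries, among them Ocoxin replicate 1 for RENBP and C13orf46 (adjusted p = 0.125 and 0.0765) and Ocoxin replicate 2 for CYP3A4 (adjusted p = 0.0998). The largest decreases were those of SPRR2E, CLDN8, COL3A1, VSNL1, KRT4, SPRR2A, SCGB1A1, SLC39A10, IVL, PLA2G4E, IGFBP5 and TENM2. SPRR2E, SPRR2A, IVL and KRT4 encode envelope proteins and a keratin of stratified epithelia. CLDN8 encodes a tight junction claudin and SCGB1A1 a secretoglobin of airway club cells. Of non-coding genes, LINC00520, LINC02582 and the pseudogene ENSG00000228626 rose most, the last from 0.965 ± 0.233 to 2.41 ± 0.0748 CPM. ENSG00000260581, SUB1P1 and ENSG00000251095 fell most, with SUB1P1 losing its call without any of 4 libraries (adjusted p from 0.0745 to 0.0951).

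Metallothioneins, small cysteine-rich proteins that bind zinc and copper, rose together. Of 12 genes of the family 8 had enough counts, and 6 of these increased while none decreased, with a median log2 fold change of 1.28 against 0.00269 over all genes tested. MT1G (chr16:56666731-56668065, hg38, minus strand) was at 0.431, 0.761 and 0.593 CPM in controls and at 8.64, 10.1 and 12.8 CPM after Ocoxin. All 3 treated libraries thus stood far above the controls, with a log2 fold change of 4.14 ± 0.21 (SE) and an adjusted p of 2.77e-08. MT1E, a more highly covered member, went from 63.4, 62.1 and 55.6 CPM to 103, 106 and 99.3 CPM, without overlap (log2 fold change 0.77 ± 0.06, adjusted p = 1.86e-06). MT2A went from 191, 206 and 169 CPM to 281, 309 and 268 CPM (0.60 ± 0.07, adjusted p = 8.31e-05), again without overlap. MT1M and MT1F rose by 1.91 and 1.69 on the log2 scale, and MT1H was between 0 and 0.190 CPM in controls and between 0.425 and 1.91 CPM after Ocoxin, so its fold rests on few counts. MT1X (16.9 ± 2.29 to 20.8 ± 0.795 CPM, adjusted p = 0.0755) passed with the replicate block (adjusted p = 0.0066) and in some other settings but not in the fit without it, and MT1L (0.41 ± 0.0728 to 0.746 ± 0.167 CPM) did not pass with or without it. These genes are near-identical and reads with several positions were counted once at their primary position, so the share of each member is uncertain.

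Among the zinc transporters, an importer fell and an exporter rose. SLC39A10, a zinc importer (chr2:195575977-195737702, hg38), was at 32.5, 29.3 and 35.5 CPM in controls and at 13.1, 11.8 and 10.1 CPM after Ocoxin, so every treated library was far below every control (log2 fold change -1.48 ± 0.10, adjusted p = 3.81e-07). SLC30A1, which exports zinc from the cell, went from 95.4, 103 and 110 CPM to 124, 129 and 143 CPM (0.36 ± 0.07, adjusted p = 0.00405). In the fit without the block these were the only tested members that changed along with MTF1 itself (0.24 ± 0.06, adjusted p = 0.031), whose call held in 1 of 6 fits without a library. Thus 2 of 19 genes rose and 1 fell, and with the block 3 rose and 4 fell. Over all genes 4.72% rose and 3.62% fell, and with the block 12.1% and 11%, so the list as a whole did not stand out.

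The promoter of MT2A is shown because metallothionein genes carry repeats of the metal response element bound by MTF1. Its core was searched as TGCACNC or TGCGCNC on both strands in the 250 bases before the RefSeq start site (GRCh38.p14). The core occurred in 32.6% of the 11632 tested genes with a promoter entry and in 3 of the 3 metallothioneins that had one. In MT2A (chr16:56608334-56608583, plus strand) it occurred 7 times, in capitals:
MT2A: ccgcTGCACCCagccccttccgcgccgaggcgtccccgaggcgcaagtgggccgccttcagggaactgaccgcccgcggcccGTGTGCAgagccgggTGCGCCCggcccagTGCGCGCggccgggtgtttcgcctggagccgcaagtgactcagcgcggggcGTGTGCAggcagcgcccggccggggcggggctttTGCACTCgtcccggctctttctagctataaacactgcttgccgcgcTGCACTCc
Among the metallothioneins that increased, MT1G, MT1M, MT1F and MT1E had no entry. The same search found 1 match in the window of SLC30A1 and no match in that of SLC39A10, which are not shown. A match is a description of the letters and not evidence of binding.

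**Figure D2:**
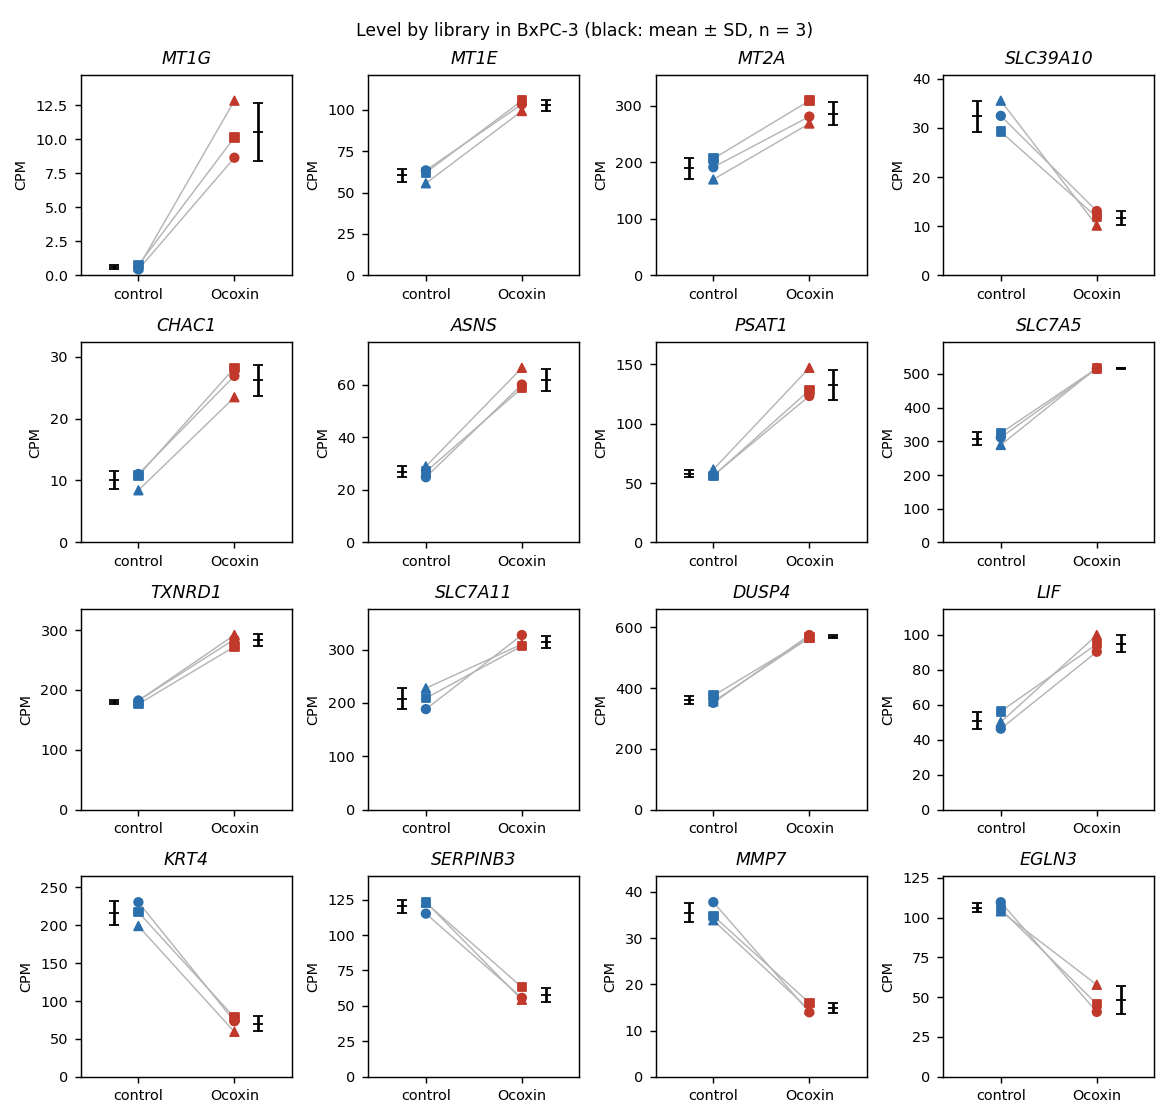
Level of 16 genes in each BxPC-3 library (CPM, linear axis from 0), with control and Ocoxin libraries of the same replicate number joined and the mean ± SD of 3 libraries in black. In each panel the 3 Ocoxin values lie wholly above or below the 3 controls, for example MT1G at 8.64 CPM or more after Ocoxin and at 0.761 CPM or less in controls.

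Many genes tied to ATF4 increased, and so did enzymes and carriers of amino acid supply, which were counted in separate lists that can share members. Of 36 tested regulators and effectors of ATF4, 15 rose and 1 fell, with a median log2 fold change of 0.22. Of 23 enzymes of serine, glycine, proline, asparagine and one-carbon synthesis 8 rose and none fell, and of 24 amino acid transporters 11 rose and 2 fell. ATF4 itself was at 440, 405 and 394 CPM in controls and at 491, 481 and 445 CPM after Ocoxin, higher in all 3 treated libraries but past the threshold with the block and not without it (adjusted p = 0.0527 without it and 4.3e-05 with it). DDIT3, which encodes the stress factor CHOP (20.1 ± 1.28 to 22.9 ± 1.85 CPM), and ATF3 (6.84 ± 0.747 to 8.03 ± 0.199 CPM) did not pass in either fit. The pattern of the members is drawn in the plot of 4 gene lists.

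CHAC1, which degrades glutathione, was at 11.05, 10.8 and 8.41 CPM in controls and at 26.9, 28.2 and 23.4 CPM after Ocoxin (log2 fold change 1.38 ± 0.11, adjusted p = 1.23e-06). ASNS, which makes asparagine, went from 24.8, 26.9 and 28.9 CPM to 60.1, 58.7 and 66.4 CPM (1.20 ± 0.08, adjusted p = 1.66e-07). Both genes were higher in every treated library than in any control. PSAT1 and PHGDH, the enzymes of serine synthesis, rose from 58.0 ± 3.03 to 133 ± 12.5 CPM and from 80.5 ± 3.69 to 142 ± 2.40 CPM. GPT2, a mitochondrial alanine aminotransferase, rose from 38.7 ± 1.24 to 73.1 ± 2.12 CPM, and TRIB3, a pseudokinase that dampens ATF4 activity, from 32.2 ± 2.33 to 58.7 ± 6.63 CPM. The hormone gene ADM2 rose by 1.14 ± 0.19 and the cytokine gene GDF15 by 0.78 ± 0.12 on the log2 scale. The only member of the ATF4 list that fell was ERO1A, an oxidase of the endoplasmic reticulum (407 ± 16.05 to 337 ± 10.6 CPM).

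Both chains of the carrier for large neutral amino acids rose. SLC7A5 was at 312, 324 and 289 CPM in controls and at 516, 517 and 518 CPM after Ocoxin (log2 fold change 0.74 ± 0.05, adjusted p = 6.04e-07), and its heavy chain SLC3A2 went from 241 ± 14.7 to 331 ± 14.6 CPM. SLC7A11, which imports cystine and is also induced by NRF2, went from 188, 209 and 228 CPM to 327, 307 and 310 CPM (0.60 ± 0.07, adjusted p = 3.35e-05). The glycine carrier SLC6A9 and the neutral amino acid carrier SLC1A4 rose by 0.95 ± 0.07 and 1.13 ± 0.13 on the log2 scale. SLC1A3, a glutamate carrier, fell from 260 ± 9.04 to 200 ± 8.603 CPM. Without control replicate 2, Ocoxin replicate 1 or Ocoxin replicate 2 the number of transporters that rose was 7, 6 and 6. Of 20 cytosolic aminoacyl-tRNA synthetases 6 rose, among them AARS1 (0.33 ± 0.05), MARS1 (0.31 ± 0.05) and WARS1 (0.29 ± 0.05), and 2 fell, a decrease that was lost without Ocoxin replicate 1 or 2.

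The promoters of CHAC1 and ASNS are shown for the element bound by ATF4 with its C/EBP partners. Its core, searched as TGATGNAA on both strands, occurred in 1.45% of the 11632 promoters, in 3 of 28 of the ATF4 list and in 3 of 13 of the amino acid synthesis list. It occurred once in each, in capitals, for CHAC1 at chr15:40953221-40953470 (plus strand) and for ASNS at chr7:97872409-97872658 (minus strand):
CHAC1: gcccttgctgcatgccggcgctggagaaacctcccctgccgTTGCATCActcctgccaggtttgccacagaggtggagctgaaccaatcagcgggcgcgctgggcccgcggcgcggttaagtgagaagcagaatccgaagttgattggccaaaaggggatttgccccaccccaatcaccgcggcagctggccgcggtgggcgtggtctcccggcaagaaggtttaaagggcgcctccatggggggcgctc
ASNS: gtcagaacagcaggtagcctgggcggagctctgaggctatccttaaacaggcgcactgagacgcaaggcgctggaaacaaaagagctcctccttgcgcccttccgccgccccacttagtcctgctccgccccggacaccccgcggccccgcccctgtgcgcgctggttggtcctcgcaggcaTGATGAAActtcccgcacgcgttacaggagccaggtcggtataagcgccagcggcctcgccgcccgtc
In CHAC1 the element started 209 bases and in ASNS 68 bases before the RefSeq start, and in CHAC1 it lay on the reverse strand. The same search found no match in the windows of TRIB3, PSAT1 and SLC7A5, which are not shown. Over all genes that increased and had an entry, the core was likewise found in 1.45% of promoters.

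Among chaperones of the endoplasmic reticulum, which are induced when proteins misfold there, more genes fell than rose. Of 36 genes 6 fell and 2 rose, with a median log2 fold change of -0.07, and with the block 12 fell and 6 rose. Over all genes 3.62% fell and 4.72% rose, and with the block 11% and 12.1%. HSP90B1 was at 1190, 1238 and 1254 CPM in controls and at 976, 980 and 959 CPM after Ocoxin (log2 fold change -0.34 ± 0.05, adjusted p = 0.000465). HSPA5, the chaperone BiP, went from 1262 ± 61.8 to 1062 ± 52.9 CPM (adjusted p = 0.0114) and CALR, calreticulin, from 995 ± 48.1 to 840 ± 27.4 CPM (adjusted p = 0.00977). Each of the last pair passed in 5 of 6 fits without a library. XBP1 was unresolved (140 ± 7.45 and 142 ± 6.23 CPM, adjusted p = 0.873). Without control replicate 2 the chaperones that fell numbered 3, and without control replicate 1, Ocoxin replicate 1 or Ocoxin replicate 2 none rose.

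The NRF2 targets that passed without the block all rose. Of 44 tested targets 19 rose and none fell, with a median log2 fold change of 0.20, and with the block 25 rose and 3 fell. TXNRD1, the cytosolic thioredoxin reductase, was at 182, 176 and 182 CPM in controls and at 285, 272 and 292 CPM after Ocoxin (log2 fold change 0.65 ± 0.05, adjusted p = 1.51e-06). OSGIN1 rose from 10.99 ± 0.951 to 18.6 ± 1.72 CPM and the pseudogene NMRAL2P by 0.72 on the log2 scale. NQO1 was at 296, 283 and 290 CPM and then at 348, 343 and 348 CPM, a small shift without overlap (0.26 ± 0.05, adjusted p = 0.005). HMOX1, the heme oxygenase, was at 2.71, 2.73 and 1.84 CPM and then at 5.02, 3.58 and 3.12 CPM, and passed with the block and not without it (adjusted p = 0.0521 without and 0.0028 with). NFE2L2, the gene of NRF2, was at 217 ± 4.99 and 211 ± 7.60 CPM (adjusted p = 0.701).

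Of 27 tested genes of glutathione synthesis, recycling and breakdown 4 rose and none fell, and 2 rose without control replicate 2 or Ocoxin replicate 1. GCLC, the catalytic chain of glutathione synthesis, rose from 168 ± 7.16 to 203 ± 8.65 CPM, whereas its modifier GCLM (89.1 ± 3.28 and 93.6 ± 3.07 CPM) did not pass. The peroxidase GPX4, which restrains ferroptosis, was at 252 ± 39.5 and 253 ± 24.04 CPM and the lipid enzyme ACSL4 at 203 ± 13.1 and 207 ± 6.23 CPM, neither past the threshold. Of 32 iron and ferroptosis genes 5 rose and 2 fell, where 4.72% of all genes rose and 3.62% fell. With the block 10 rose and 6 fell, against 12.1% and 11% of all genes. CHAC1, SLC7A11 and SLC3A2 are among the 5 that rose without the block, together with the ferritin heavy chain FTH1 (86.8 ± 13.1 to 119 ± 6.90 CPM). SAT1, a polyamine acetyltransferase, fell from 298 to 216 CPM (log2 fold change -0.46).

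The promoter of TXNRD1 is shown for the antioxidant response element, the site of NRF2 with small MAF proteins. The core was searched as TGACNNNGC on both strands, letters that can overlap an AP-1 site. It occurred in 12.1% of the 11632 promoters and in 7 of 30 NRF2 targets with an entry. In TXNRD1 (chr12:104215529-104215778, plus strand) it occurred once, 99 bases before the start, in capitals:
TXNRD1: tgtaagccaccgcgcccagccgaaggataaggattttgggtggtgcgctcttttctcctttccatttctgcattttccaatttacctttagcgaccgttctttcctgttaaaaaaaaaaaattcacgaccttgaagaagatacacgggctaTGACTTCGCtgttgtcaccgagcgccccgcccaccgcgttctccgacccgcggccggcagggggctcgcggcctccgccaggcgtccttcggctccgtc
Over all genes that increased, the core was found in 11.3% of promoters, close to the share in all genes. No match was found in the windows of OSGIN1 and NQO1.

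The aryl hydrocarbon receptor AHR binds planar xenobiotics and induces the enzymes that oxidise them. Of 16 tested genes of this pathway 5 rose and 1 fell, against 4.72% and 3.62% of all genes. NQO1 and SLC7A5 are among the 5. Without control replicate 1 or Ocoxin replicate 1 the number that rose was 3. With the block 6 rose and 4 fell, against 12.1% and 11% of all genes. CYP1B1, a xenobiotic oxidase, went from 72.3, 72.5 and 80.8 CPM to 112, 112 and 148 CPM (log2 fold change 0.72 ± 0.09, adjusted p = 0.00016). CYP1A1, the classical target, was at 5.85, 9.26 and 9.39 CPM and then at 4.74, 5.03 and 7.54 CPM, with overlapping groups and a call as lower with the block and not without it (adjusted p = 0.123 without it and 0.0028 with it). The repressor AHRR rose by 0.31 ± 0.07 but lost its call without control replicate 1, Ocoxin replicate 1 or Ocoxin replicate 2 (adjusted p from 0.0569 to 0.128). The receptor AHR was at 150 ± 9.04 and 135 ± 4.65 CPM (adjusted p = 0.117, and 0.0032 with the block).

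**Figure D3:**
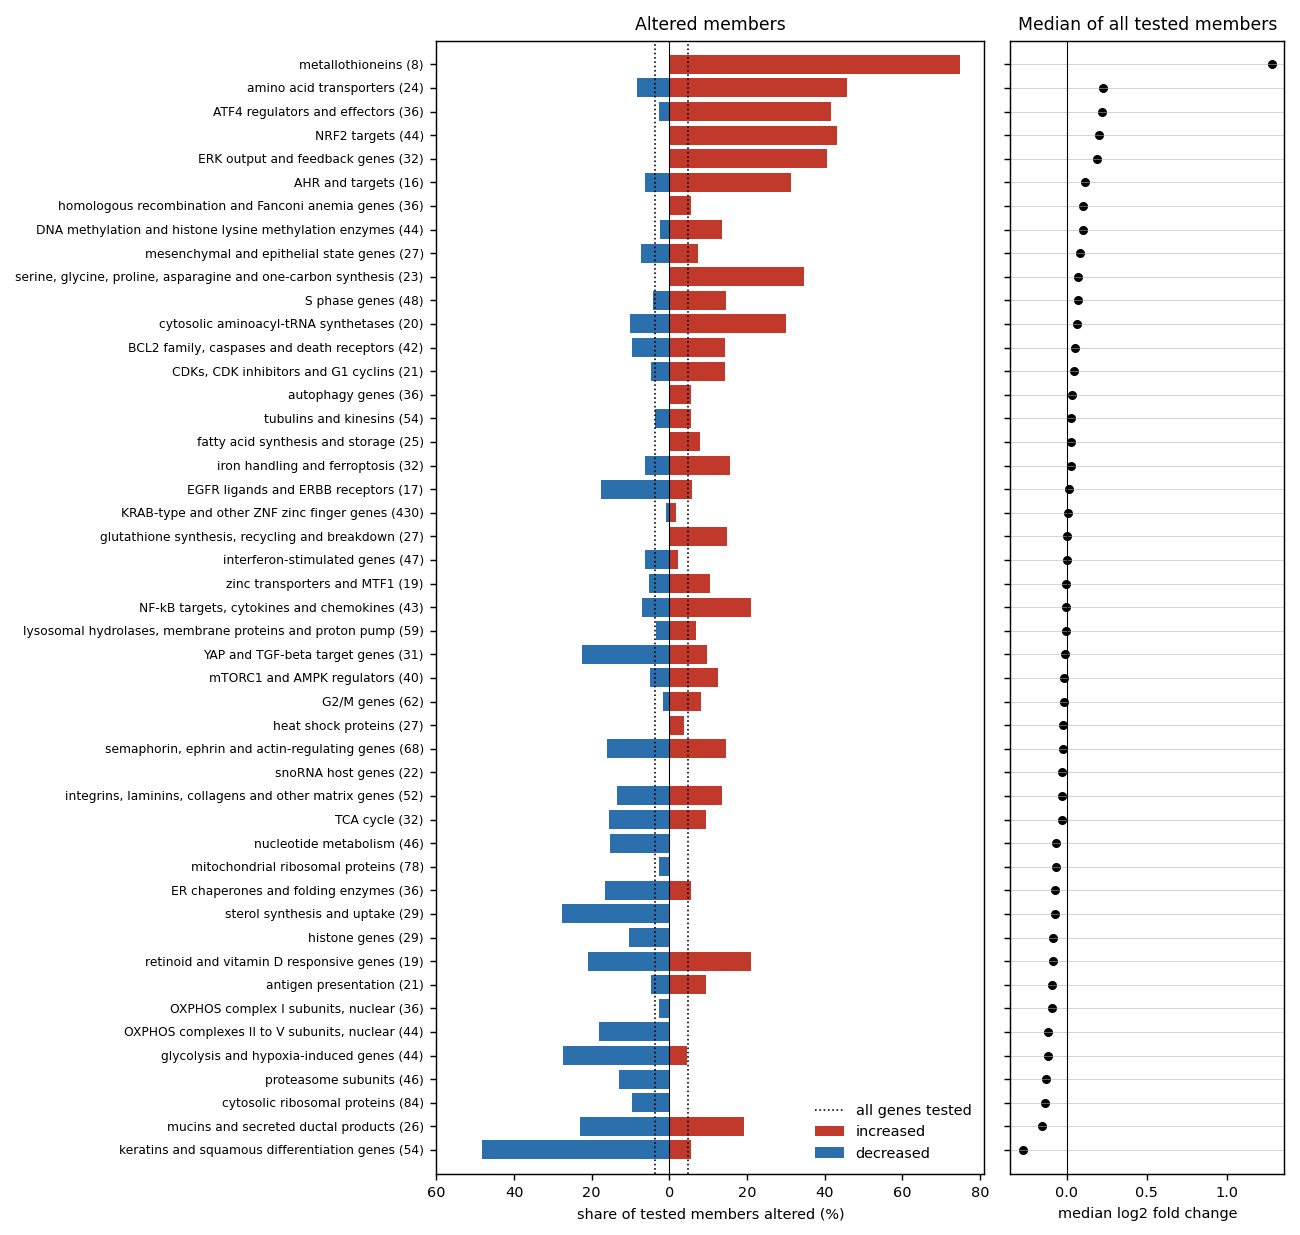
Share of the tested members of the gene lists that increased (right) or decreased (left) at an adjusted p under 0.05, with dotted lines at 4.72% and 3.62% for all genes tested, and the median log2 fold change of all tested members. The number tested is in parentheses, and the lists are ordered by median, from metallothioneins at 1.28 down to keratins and squamous genes at -0.27.

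Keratins and squamous differentiation genes had the highest share of decreases among the lists in the fit without the block, whereas with it the cytosolic ribosomal proteins had a higher one (62 of 84 against 35 of 54). Of 54 tested genes 26 fell and 3 rose, with a median log2 fold change of -0.27, which was the same with a length and GC trend removed. KRT4 (chr12:52806549-52814551, hg38, minus strand), a keratin of mucosal stratified epithelia, was at 231, 217 and 199 CPM in controls and at 73.2, 78.3 and 59.3 CPM after Ocoxin (log2 fold change -1.62 ± 0.09, adjusted p = 2.77e-08). Its mucosal relative KRT13 went from 507, 451 and 407 CPM to 303, 314 and 284 CPM (-0.60 ± 0.07, adjusted p = 6.86e-05). Neither pair of groups overlapped. The protease inhibitors of the squamous serpin cluster fell as well, SERPINB3 from 115, 123 and 123 CPM to 55.7, 63.2 and 54.3 CPM (-1.06 ± 0.07, adjusted p = 1.66e-07) and SERPINB13 from 65.5 ± 2.77 to 33.1 ± 4.09 CPM. SERPINB4, which shares reads with SERPINB3, fell from 14.5 ± 0.316 to 5.47 ± 1.10 CPM. By symbol stem, 7 of 11 SERPINB genes and 8 of 19 KRT genes decreased, the highest shares of any stem with at least 10 tested genes.

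Envelope precursors were at low levels and fell further. SPRR2E was at 2.52, 2.22 and 2.64 CPM and then at 0.256, 0.303 and 0.578 CPM (-2.67 ± 0.29, adjusted p = 3.15e-05), and IVL, involucrin, went from 2.18 ± 0.646 to 0.785 ± 0.126 CPM. SPRR1B went from 51.5 ± 4.18 to 31.1 ± 4.06 CPM. The SPRR2 genes are near-identical and share reads. The desmosomal cadherin gene DSG3 fell from 190 ± 6.66 to 127 ± 6.33 CPM and the stem cell factor SOX2 from 18.3 ± 1.94 to 11.8 ± 0.328 CPM. TP63, the regulator of the squamous program, was at 379, 401 and 403 CPM and at 386, 381 and 388 CPM, with overlapping groups (adjusted p = 0.737). The keratin KRT80 rose from 27.1 ± 3.09 to 36.1 ± 2.18 CPM, and the plakins EVPL and PPL rose by 0.29 and 0.20 on the log2 scale, each passing in only 3 of 6 fits without a library. In fits without 1 library, from 19 to 31 members fell. Ductal secretory genes were mixed, with 5 of 26 higher and 6 lower. Among them MUC5AC rose (3.88 ± 0.285 to 6.65 ± 0.410 CPM) and the trefoil factor TFF1 fell (15.1 ± 1.09 to 7.55 ± 0.898 CPM). Without Ocoxin replicate 2 the number of ductal genes that fell was 2, and it was 3 without control replicate 2, Ocoxin replicate 1 or Ocoxin replicate 3. With the block 12 fell.

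Genes that ERK signaling induces, and the feedback inhibitors of that pathway, rose. Of 32 tested genes 13 rose and none fell, with a median log2 fold change of 0.19, while 8 rose without Ocoxin replicate 1 or 2 and the median was 0.12 with a length and GC trend removed. DUSP4, a nuclear phosphatase of ERK, was at 352, 375 and 356 CPM in controls and at 575, 566 and 566 CPM after Ocoxin (log2 fold change 0.66 ± 0.05, adjusted p = 1.05e-06). ETV4 and ETV5, transcription factors downstream of ERK, rose from 33.1 ± 1.28 to 51.6 ± 1.75 CPM and from 13.3 ± 1.21 to 20.8 ± 1.47 CPM. SPRY4, a feedback inhibitor, went from 9.66, 11.8 and 10.6 CPM to 16.3, 16.6 and 19.6 CPM (0.71 ± 0.11, adjusted p = 0.000551). Other outputs of the pathway differed. DUSP6 was at 197 ± 9.05 and 204 ± 4.15 CPM (adjusted p = 0.619) and the immediate early gene EGR1 at 82.9 ± 3.60 and 73.5 ± 8.37 CPM (adjusted p = 0.187, and 0.008 as lower with the block). Of 17 tested ligands, receptors and regulators of the EGFR family, the ligand HBEGF rose from 109 ± 2.27 to 172 ± 5.64 CPM and 3 genes fell, among them the ligand NRG1 (log2 fold change -0.37). Thus 1 of the 17 rose and 3 fell, where 4.72% of all genes rose and 3.62% fell.

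**Figure D4:**
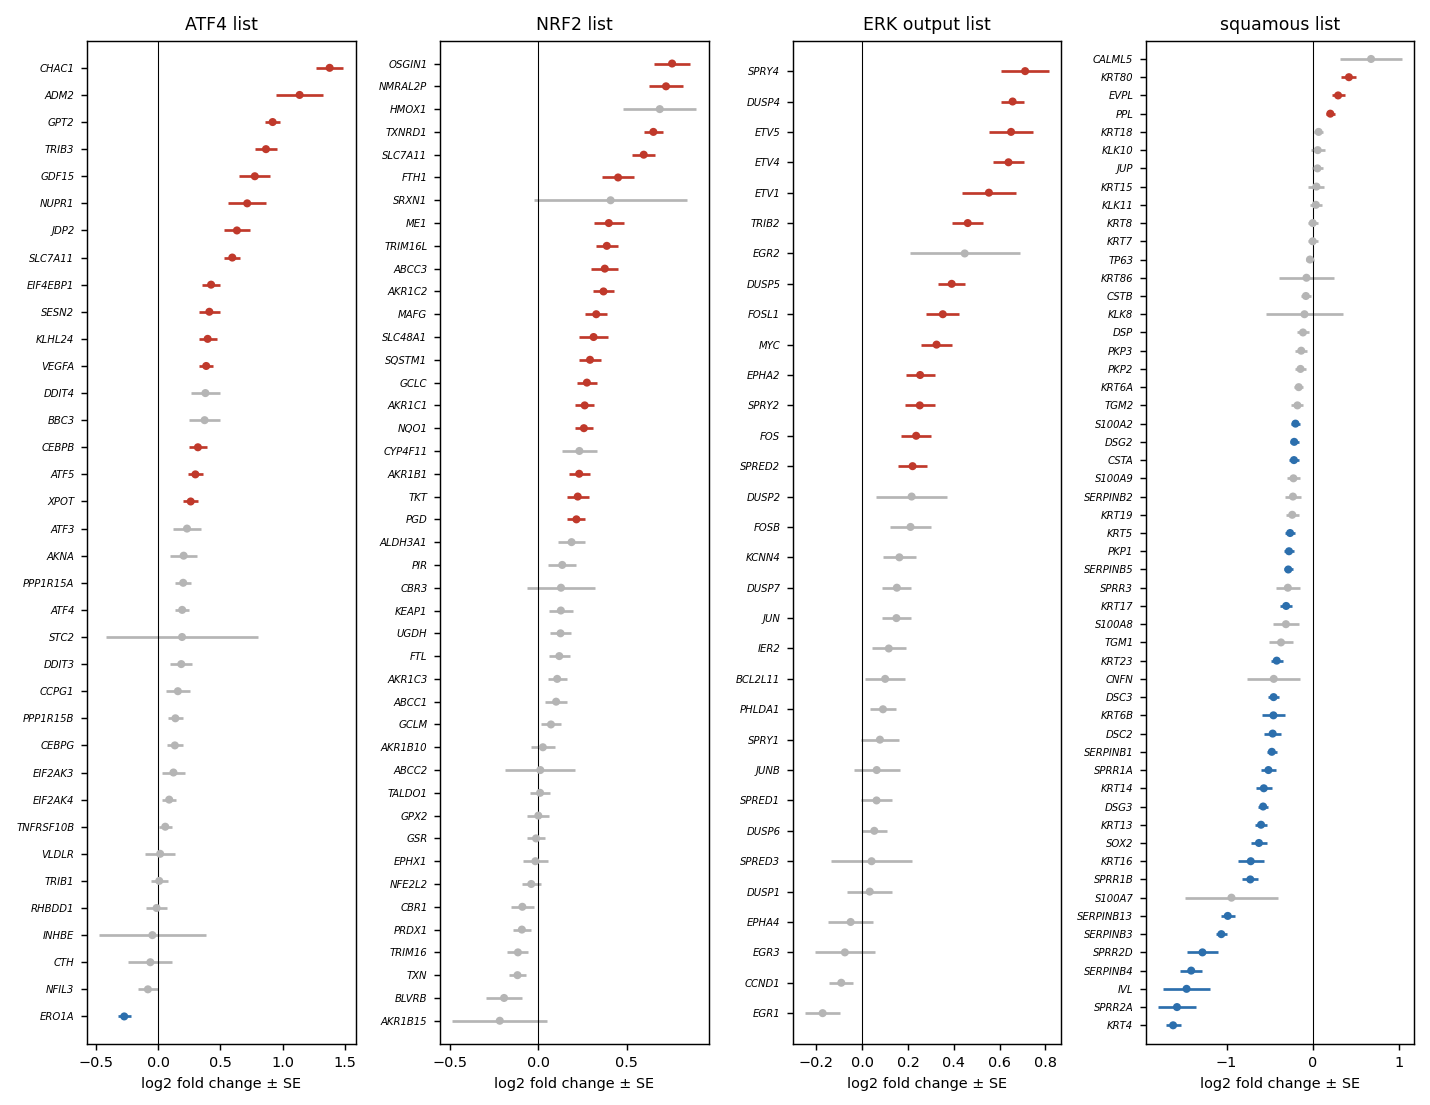
Log2 fold change ± SE of tested members of the ATF4, NRF2, ERK output and squamous lists, in red where increased, in blue where decreased and in grey where the adjusted p was 0.05 or more. The squamous panel runs from KRT4 at -1.62 upward, with 26 blue points, and the ERK panel has 13 red points and no blue one.

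Of 43 NF-kB targets, cytokines and chemokines 9 rose and 3 fell. LIF, a cytokine of the interleukin 6 family, was at 46.2, 56.2 and 50.0 CPM in controls and at 90.2, 94.5 and 99.8 CPM after Ocoxin (log2 fold change 0.90 ± 0.07, adjusted p = 1.51e-06). The colony-stimulating factors CSF1 and CSF3 rose by 0.53 ± 0.06 and 0.86 ± 0.11 on the log2 scale. In the interleukin 1 family, IL1RL1 went from 118, 141 and 147 CPM to 288, 330 and 360 CPM, again without overlap (1.27 ± 0.08, adjusted p = 2.5e-07). Its ligand IL33 fell from 20.2 ± 2.27 to 13.2 ± 2.27 CPM, and IL37, which dampens inflammation, rose from 1.06 ± 0.0383 to 3.15 ± 1.30 CPM. IL19, of the interleukin 10 family, went from 0.674 ± 0.0898 to 2.20 ± 0.273 CPM. Without control replicate 2 the number of NF-kB list genes that rose was 5. Interferon-stimulated genes showed 1 increase and 3 decreases among 47, with a median log2 fold change of 0.00154. None of them passed without control replicate 2 or Ocoxin replicate 1, and with the block 3 rose and 11 fell. Over all genes 4.72% rose and 3.62% fell, and with the block 12.1% and 11%.

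Matrix proteases moved in both directions. MMP7, a protease of epithelial cells, was at 37.8, 34.8 and 33.9 CPM in controls and at 13.95, 15.98 and 14.5 CPM after Ocoxin (log2 fold change -1.26 ± 0.08, adjusted p = 2.46e-07). MMP13 and MMP9 also fell, from 21.3 ± 1.37 to 10.97 ± 1.75 CPM and from 20.7 ± 2.21 to 11.5 ± 1.83 CPM. The interstitial collagenase MMP1 went from 84.7, 85.9 and 86.9 CPM to 138, 158 and 196 CPM (0.93 ± 0.09, adjusted p = 1.29e-05), with more spread among the treated libraries than among the controls. Of 52 matrix and integrin genes 7 rose and 7 fell, and of 31 YAP and TGF-beta targets 3 rose and 7 fell, among the latter CCN1 and THBS1 (-0.41 and -0.45 on the log2 scale). For comparison, 4.72% of all genes rose and 3.62% fell. The activin chain INHBA rose from 85.9 ± 13.2 to 138 ± 9.22 CPM. The matrix genes that rose numbered 4 without Ocoxin replicate 1 or 2 and 11 without Ocoxin replicate 3, and with a length and GC trend removed 18 fell. The YAP and TGF-beta targets that fell numbered 4 without control replicate 2 or Ocoxin replicate 2.

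Glycolytic and hypoxia-induced genes decreased. Of 44 genes 12 fell and 2 rose, with a median log2 fold change of -0.12, and with the block 20 fell and 4 rose. EGLN3, a prolyl hydroxylase that hypoxia induces, was at 110, 105 and 104 CPM in controls and at 40.8, 45.7 and 57.8 CPM after Ocoxin (log2 fold change -1.14 ± 0.09, adjusted p = 1.77e-06). P4HA1, which hydroxylates collagen, fell from 99.4 ± 5.00 to 73.2 ± 8.09 CPM and the glycolytic kinase gene PGK1 from 902 ± 16.9 to 729 ± 45.2 CPM. The 2 that rose were HIF1A, the regulator of the group (572 ± 14.7 to 719 ± 8.25 CPM, adjusted p = 0.000609), and VEGFA (328 ± 17.5 to 429 ± 15.7 CPM), which is also an ATF4 target. Without Ocoxin replicate 1 the number that fell was 6, and with a length and GC trend removed it was 22.

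Of 29 sterol synthesis and uptake genes 8 fell and none rose, where 3.62% of all genes fell and 4.72% rose. With the block 12 fell and 2 rose, against 11% and 12.1% of all genes. HMGCS1, the synthase ahead of HMG-CoA reductase, went from 655, 657 and 681 CPM to 448, 442 and 445 CPM (log2 fold change -0.58 ± 0.05, adjusted p = 2.11e-06), and SQLE from 222 ± 4.19 to 170 ± 3.71 CPM. SREBF2, which encodes their regulator, was at 298 ± 17.3 and 300 ± 14.7 CPM and did not pass. Without Ocoxin replicate 2 the number that fell was 4.

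Genes of protein and energy production had medians slightly below 0, with few members past the test. Over all genes 3.62% fell, and 11% fell with the block. Of 84 cytosolic ribosomal protein genes 8 fell and none rose, with a median log2 fold change of -0.14, and 62 fell with the block. The 8 became 1 or 2 without any 1 library except control replicate 3, where they became 36. Of 46 proteasome genes 6 fell (21 with the block), of 44 subunits of respiratory complexes II to V 8 fell (23 with the block), and of 36 of complex I 1 fell (10 with the block, and 1 with the block once a length and GC trend was removed). Without Ocoxin replicate 1 or 2 no subunit of complexes II to V passed, 2 passed without control replicate 1 or 2 and 13 without control replicate 3, while 3 and 2 proteasome genes passed without Ocoxin replicates 1 and 2. The medians of the 3 groups were -0.13, -0.11 and -0.09, and they stayed below 0 (-0.10, -0.08 and -0.07) once the trend was removed.

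Cell cycle genes moved by small amounts, with medians between -0.01 and 0.10 on the log2 scale. Of 48 S phase genes 7 rose and 2 fell, of 62 G2/M genes 5 rose and 1 fell, and of 36 homologous recombination and Fanconi anemia genes 2 rose and none fell. Over all genes 4.72% rose and 3.62% fell. With the block, where 12.1% of all genes rose and 11% fell, these became 16 and 4, 9 and 12, and 14 and 0. FOXM1, which drives G2/M transcription, rose from 118 ± 4.39 to 156 ± 3.68 CPM (adjusted p = 0.000314), while KIF20A, a mitotic kinesin, fell from 64.4 ± 5.00 to 49.5 ± 3.21 CPM (adjusted p = 0.0045). RAD54L was at 25.5 ± 1.10 and 30.2 ± 0.564 CPM (adjusted p = 0.0535, and 0.0038 with the block). Without Ocoxin replicate 1 or 2 a single S phase gene rose, and it was 2 without control replicate 1 or 2. No recombination gene passed without control replicate 2 or Ocoxin replicate 1, and 7 did without control replicate 3.

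Of the 13 genes that the authors selected on these same libraries as altered in every cell line, 9 rose and 2 fell here, and HMOX1 and RAD54L passed with the block and not without it. This count is not independent evidence, since the list was chosen on these libraries. Separately, the authors measured the listed genes by RT-qPCR on RNA extracted again after Ocoxin treatment. They reported HMOX1 and RAD54L as higher in PAAD cells by that assay, which was not re-examined here.

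The response was then compared with that of SW620 and HCC-70 by an interaction term in 1 fit of the 18 libraries in the same count table. The responses of BxPC-3 and SW620 differed in 835 of 21068 genes (3.96%), and those of BxPC-3 and HCC-70 in 960 (4.56%). Both comparisons contain the same BxPC-3 libraries, and since BxPC-3 received the 500-fold and the others the 700-fold dilution, the cell line and the dose cannot be told apart. Without control replicate 1 of BxPC-3 the first count was 520.

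Several amino acid genes rose more in BxPC-3 than in either line. The log2 fold change of PSAT1 was 1.20 in BxPC-3, -0.01 in SW620 and 0.09 in HCC-70 (adjusted p of the difference 9.56e-11 and 2.25e-10), and that of ASNS was 1.20, 0.24 and 0.03 (adjusted p = 2.3e-07 and 5.77e-10). PHGDH, GPT2, SLC6A9, SLC1A4, SLC7A5 and TRIB3 also differed from both lines, always higher in BxPC-3. Counted in either direction, 8 of the 36 ATF4 genes differed from SW620 and 10 from HCC-70, and 7 and 8 of the 24 transporters. The median of the ATF4 list was 0.22 in BxPC-3, 0.12 in SW620 and 0.16 in HCC-70. That of the transporters was 0.23, 0.0034 and 0.09. MT1G rose in every line, by 4.14, 2.39 and 1.87, and more in BxPC-3 (adjusted p = 0.00447 and 2.66e-05). For MT1E the order against SW620 was the reverse, 0.77 in BxPC-3 and 1.62 in SW620 (adjusted p = 2.1e-05). SLC39A10 fell by 1.48 in BxPC-3 and by 0.81 in each of the others on the log2 scale (adjusted p = 0.00073 and 0.00088). TXNRD1 had log2 fold changes of 0.65, 0.25 and 0.28 (adjusted p = 0.00083 and 0.001).

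The ERK output genes parted most from HCC-70, where 14 of the 32 differed, against 7 for SW620. Their median was 0.19 in BxPC-3, 0.03 in SW620 and -0.21 in HCC-70. For DUSP4 the log2 fold changes were 0.66, 0.13 and -0.21 (adjusted p = 0.00049 and 0.00014). The cytokine LIF, which is not one of these genes, was at 0.90, 0.05 and -1.08 (adjusted p = 0.000599 and 1.58e-10). Among decreased genes, VSNL1, a neuronal calcium sensor, was at -1.64 in BxPC-3, -0.14 in SW620 and 0.23 in HCC-70 (adjusted p = 3.3e-08 and 1.7e-10). MMP7 was at -1.26, 0.81 and -0.10 (adjusted p = 0.00199 and 0.0135). KRT4 fell by 1.62 in BxPC-3 and was at -0.11 in HCC-70 (adjusted p = 4.8e-05), whereas KRT13 was at -0.60 and -0.62 and SERPINB3 at -1.06 and -0.94 in these lines, differences that did not pass (adjusted p = 1 and 0.91). SW620 had too few counts of these 3 genes for a test of its own. HMGCS1 was lower after Ocoxin by more in BxPC-3 than in both lines (log2 fold changes -0.58, -0.18 and -0.08, adjusted p = 0.00019 and 3.9e-06). Its sterol list as a whole was not lower in BxPC-3, with medians of -0.07 in BxPC-3, -0.09 in SW620 and -0.12 in HCC-70. Hypoxia-induced P4HA1 fell less in BxPC-3 than in HCC-70 (-0.44 and -1.10, adjusted p = 0.00092), and of the 44 genes of its list 16 differed from HCC-70 and 9 from SW620.

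**Figure D5:**
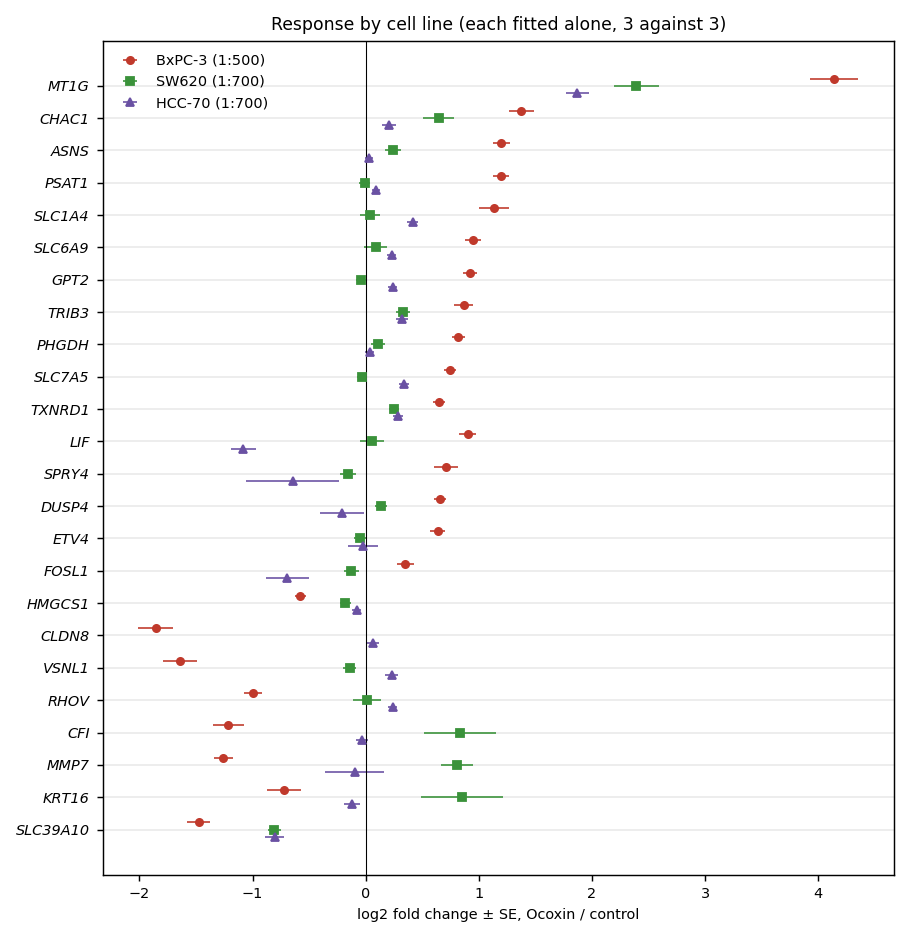
Log2 fold change ± SE of 24 genes in BxPC-3 (500-fold dilution), SW620 and HCC-70 (700-fold dilution), each line fitted alone with 3 libraries per group. PSAT1 stands at 1.20 in BxPC-3 beside -0.01 and 0.09 in the other lines, and CLDN8 has no SW620 point because it had too few counts there.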

How the data were processed

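RNA from BxPC-3 cells was made into stranded mRNA libraries by the authors and sequenced on an Illumina instrument. Per the study's methods and the submitters' notes, reads were trimmed with fastp, aligned to hg38 with STAR and cleared of duplicates with picard. They were counted per gene with featureCounts, version 2.0.3 by the file header, and DESeq2 was used by the authors. Gene symbols and types were added here from GENCODE release 44, which held 56948 of the 58051 identifiers. Of these, 38822 had the same start and end there. The deposited values are raw counts, whole numbers per gene. The file header shows that both mates of a fragment were counted as separate reads, without a strand option and with 1 primary position for reads that map to several, so overlapping, antisense and near-identical genes are uncertain. Counts of the 37 mitochondrial genes were 0 in all libraries. A separately counted table of another cell line (LNCaP) was not used.

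Counts were filtered with filterByExpr, normalized by TMM and tested two-sided by quasi-likelihood F-tests in edgeR 4.0.16 (limma 3.58.1, R 4.3.3), Benjamini-Hochberg adjusted over all 17280 genes. The standard error is the log2 fold change divided by the square root of F. The difference between cell lines was the interaction contrast in a fit of 18 libraries. Per-library totals of 31101178 to 34231106 counts and a biological coefficient of variation of 6.836% set the precision. Replicate pairs of a group differed by more than counting noise. Deviations of same-numbered control and Ocoxin libraries from their group means correlated at r = 0.183, 0.1078 and 0.3309 over 14360 genes. Between different numbers r was 0.09643 for control 1 with Ocoxin 2 and 0.03756 for control 2 with Ocoxin 1. It was negative wherever 1 library of the pair was replicate 3. Replicate 3 was thus set apart, whereas replicates 1 and 2 were hardly told from each other. The numbers were taken to pair the libraries, a reading that comes from the data and not from the labels. Alternatives were DESeq2 1.42.0, its size factors, other filters, protein-coding genes only, halved counts, a length and GC trend removed by offsets, the replicate block, 18 libraries in 1 fit, stricter thresholds and leaving out each library. The scripts were tested on simulated data.

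The gene lists and the rule for named genes were chosen with earlier results of these data known. The rule took, of altered protein-coding genes with groups that do not overlap and a mean of at least 1 CPM in the higher group, the 12 largest changes each way, 3 genes each way that are not protein-coding, up to 4 altered members of each list with its regulator, the cell type markers, and the 3 largest differences each way from the other lines. The other genes named in the text, among them MT1X, MT1L, MT2A, HMOX1, CYP1A1, RAD54L, SPRY4, DUSP6, EGR1, KRT13, DSG3, SOX2, TP63, IL33, HSPA5, FTH1, GPX4, CDKN2A and SMAD4, were chosen after their values were seen. A few results are not reported here. Promoter sequences are from RefSeq (GRCh38.p14).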

Additional observations from a re-analysis of the deposited data

Results flagged for a closer look

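For the genes below, the responses of BxPC-3 and of another cell line differed by the interaction test of edgeR. These genes stood among the 3 largest differences each way, and some of them did not pass in BxPC-3 itself. The values are differences of log2 fold changes, BxPC-3 minus the other line, and in every case the 500-fold and 700-fold dilutions cannot be told apart from the cell lines. Against SW620, MT1G stood at 1.74, the long non-coding RNA LINC02582 at 1.63 and the acid phosphatase gene ACP7 at 2.49, while SPTSSB stood at -5.45 and PPP1R3G at -5.36. MT1G had 50, 44 and 78 counts in SW620 controls and 225, 284 and 254 after Ocoxin. ACP7 did not pass in BxPC-3 alone (log2 fold change 0.374, adjusted p = 0.0769 in edgeR). In SW620 it had 16, 26 and 11 counts in controls and 4, 4 and 2 after Ocoxin. LINC02582 had 16, 18 and 19 counts in SW620 controls and 13, 4 and 21 after Ocoxin. SPTSSB and PPP1R3G had no count in the SW620 controls and at most 6 after Ocoxin, so their fitted values depend on the prior count and are no bounds.

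Against HCC-70, SCGB1A1 stood at -5.86, POU2AF2 at -5.77 and the calcium-binding protein gene CHP2 at -3.15, while the peptide hormone gene APLN stood at 5.77, CAMK2B at 5.54 and the lysophosphatidic acid receptor gene LPAR1 at 4.87. Of these CHP2 alone had counts in all 6 HCC-70 libraries, 6, 15 and 11 in controls and 29, 34 and 44 after Ocoxin. The other 5 had a group with no count in HCC-70 and at most 14 in the other, and the sizes of their differences are likewise no bounds. In BxPC-3 alone, APLN, CAMK2B, LPAR1 and POU2AF2 did not pass (adjusted p from 0.446 to 0.92 in edgeR).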

How the results depend on the processing

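The count of altered genes (1440) was 3998 with the replicate block, 2313 with the dependence on length and GC of the genes removed, 3372 with both, and 2277 with replicates 1 and 2 of both groups alone, an alternative chosen after seeing that replicate 3 stood apart. It was 569 at an adjusted p under 0.01, 287 with a fold change of at least 1.5 and 100 with at least 2. Without 1 library it ranged from 641 (Ocoxin replicate 2) to 1715 (control replicate 3). DESeq2, its size factors, 2 other filters, protein-coding genes only, halved counts and 18 libraries in 1 fit gave between 1417 and 1856. The difference from SW620 (835 genes) was 1531 genes with DESeq2, 2718 with the block and 520 to 1072 without 1 library, and that from HCC-70 (960) was 1580, 2628 and 680 to 1072. Stricter thresholds lower a count by construction, and the cause of the other changes was not tested. Of 245 named genes, 231 kept their direction and side of the threshold with the block and 14 passed in addition. One reversed, SREBF2, with a log2 fold change of -0.0916 when this dependence was removed and the block was fitted. Genes under about 1 CPM rest on few counts, and their changes are the least precise.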

Other observations

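Gene families were also grouped by symbol stem where at least 10 members were tested. Over all genes tested 4.72% rose and 3.62% fell. Among the stems with the highest share of increases, 4 of 10 AKR genes rose, which encode aldo-keto reductases. So did 3 of 14 KLF genes, which encode zinc finger transcription factors, while 1 KLF gene fell, KLF7. Of 48 genes whose symbols begin with IL and a number, 9 rose and 4 fell. Among the stems with the highest share of decreases besides SERPINB and KRT, 4 of 13 ANXA genes fell, which encode annexins, calcium-dependent membrane-binding proteins, as did 3 of 10 CASP genes, which encode caspases. Of 13348 protein-coding genes tested 9.99% were altered, and of 1998 long non-coding RNA genes 2.55%.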
